A study of Mus musculus with 12 samples.

Results

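The 10 genes described here encode UDP-glucuronosyltransferases of mouse liver: Ugt1a1, Ugt1a6a, Ugt1a6b, Ugt1a9, Ugt2a3, Ugt2b1, Ugt2b5, Ugt2b34, Ugt2b35 and Ugt2b36. They were chosen by name, as the rows of the gene table that carry these symbols, and make up 10 of its 45777 rows. RNA-seq was run on 12 livers of male C57BL/6 mice, in 4 groups of 3 livers: wild type (WT) given vehicle, WT given acetaminophen (APAP), mice labelled Gα12-/- given vehicle, and mice labelled Gα12-/- given APAP. The labels give an age of 10 to 12 weeks. APAP, a common painkiller and, at high dose, a liver toxicant, was injected once into the abdominal cavity at 300 mg/kg after a night without food, and livers were taken 6 h later. All mice of this injury model were fasted, and the WT mice were littermates of the Gna12 KO mice, which lack the G protein subunit Gα12. How the Gna12 allele was made, and so which exons it lacks, is not given in the sources used here. Each library came from 1 liver, so the p-values measure the spread between livers.

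UDP-glucuronosyltransferases sit in the endoplasmic reticulum membrane and join glucuronic acid, taken from UDP-glucuronic acid, to drugs, bilirubin, bile acids and steroid hormones, which can then leave in bile or urine. At low doses most APAP is cleared this way or by sulfation, and the remainder is oxidized by cytochrome P450 enzymes to the reactive product that binds glutathione. The Ugt1a genes are alternative first exons spliced to 1 common set of 3′ exons, whereas each Ugt2b gene has all its exons to itself.

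Total counts ran from 49737950 to 69566079 per library, of which the 10 genes took 133265 to 198544. Gna12 counts were 3550, 1659 and 3172 in WT vehicle livers, 1193, 4373 and 3178 in WT APAP livers, 4003, 3422 and 2472 in KO-label vehicle livers, and 2489, 3023 and 3248 in KO-label APAP livers. They were not lower under the KO label, so the groups are called WT and KO label throughout; a count over the whole gene cannot show the loss of an unknown part of it. The library WT APAP 1 stood apart, with 238212 counts of the hemoglobin gene Hba-a1 against 2551 to 7713 in the other 11 livers and a TMM factor, which rescales a library's total for the genes most libraries share, of 0.75 against 0.892 to 1.13. Its place among the other livers thus depends on the scale, and results that rest on it are given without it or on both scales. The hepatocyte markers summed to between 61420 and 98780 TPM (transcript abundance corrected for transcript length and library size) over the 12 livers, with none of the 6 found in the table at 0.

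The Ugt1a and Ugt2 genes lie in 2 separate clusters, and sequence bears on how far their counts can be told apart. On GRCm38.p6, Ugt1a9 (chr1:88070779-88220002), Ugt1a6b (chr1:88103257-88218998), Ugt1a6a (chr1:88134809-88220002) and Ugt1a1 (chr1:88211959-88220002) are nested on the plus strand, so that each gene's span holds the first exons of the genes after it. The 4 shared coding exons start at position 88215044 and hold 735 coding bases, between 45.8% and 46.4% of each of the 4 coding sequences. The joins of each gene's own coding exon to the first shared exon are given here, from the GENCODE M21 transcripts, because reads across them or within the part before them assign a count to 1 Ugt1a gene, while reads in the shared exons do not. The first 20 bases, in lower case, are the gene's own, and the 20 bases in capitals are shared.
Ugt1a1: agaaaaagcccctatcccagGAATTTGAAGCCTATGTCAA
Ugt1a6a: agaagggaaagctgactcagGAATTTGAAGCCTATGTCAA
Ugt1a6b: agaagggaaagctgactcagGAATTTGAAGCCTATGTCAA
Ugt1a9: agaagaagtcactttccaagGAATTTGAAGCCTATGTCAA
The Ugt1a6a and Ugt1a6b lines hold the same letters. Before the shared exons the coding sequences of these genes were 96.97% identical, so their separate counts are uncertain. The corresponding figure was 91.23% for Ugt1a9 against Ugt1a10 and 58.84% for Ugt1a1 against Ugt1a5, the closest relative of each in the cluster. How the counting tool divided reads of the shared exons between the Ugt1a rows is not given in the sources used here.

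The Ugt2 genes span chr5:86889770-87490871, in the order Ugt2b34 (chr5:86889770-86906937), Ugt2b1 (chr5:86916639-86926503), Ugt2b35 (chr5:87000860-87013274), Ugt2b36 (chr5:87065927-87092555), Ugt2b5 (chr5:87124946-87140340) and Ugt2a3 (chr5:87324972-87337195). Ugt2b35 is on the plus strand and the other 9 genes of the cluster that were placed are on the minus strand. Over the coding sequence, Ugt2b5 was 97.04% identical to Ugt2b38 and 94.65% to Ugt2b37, which are rows of their own in the table, so reads may be divided between these 3. The closest relatives of the other members were less alike: Ugt2b36 with Ugt2b5 (88.64%), Ugt2b35 with Ugt2b36 (88.3%), Ugt2b1 with Ugt2b34 (74.69%) and Ugt2a3 with Ugt2a2 (71.49%).

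RefSeq promoter windows on GRCm38.p6, from 250 bases before to 50 bases after the gene start, were matched for 9 of the 10 genes; Ugt1a6b had none. They were searched on both strands for the hepatic HNF1 motif GTTAATNAT, the antioxidant response element TGACNNNGC, the xenobiotic response element core GCGTG and the TATA sequence TATAAA. The HNF1 letters were found in Ugt1a1 and Ugt1a9, and in 0.801% of all 32851 promoters in the table. The other 3 motifs were found in none of the 9 windows, against 12.4%, 32.4% and 13.6% of all promoters in the order named; such a search says only whether these letters are present. The windows of the 2 Ugt1a genes whose counts went apart in some livers, and of Ugt2b35, the gene that was higher after APAP, are shown in gene direction with the HNF1 match, read on the reverse strand, in capitals. The windows are chr1:88211709-88212008 for Ugt1a1, chr1:88070529-88070828 for Ugt1a9 and chr5:87000610-87000909 for Ugt2b35, all on the plus strand.
Ugt1a1: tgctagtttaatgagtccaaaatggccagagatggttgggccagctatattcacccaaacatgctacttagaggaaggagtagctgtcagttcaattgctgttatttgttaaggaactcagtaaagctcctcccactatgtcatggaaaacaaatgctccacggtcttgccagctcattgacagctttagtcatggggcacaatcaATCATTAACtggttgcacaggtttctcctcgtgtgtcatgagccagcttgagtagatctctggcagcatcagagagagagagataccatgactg
Ugt1a9: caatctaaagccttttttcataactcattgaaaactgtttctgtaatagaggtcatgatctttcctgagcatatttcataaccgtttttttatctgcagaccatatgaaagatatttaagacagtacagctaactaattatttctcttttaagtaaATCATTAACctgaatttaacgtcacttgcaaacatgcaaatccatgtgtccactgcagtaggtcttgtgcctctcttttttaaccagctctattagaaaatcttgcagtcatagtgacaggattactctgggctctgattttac
Ugt2b35: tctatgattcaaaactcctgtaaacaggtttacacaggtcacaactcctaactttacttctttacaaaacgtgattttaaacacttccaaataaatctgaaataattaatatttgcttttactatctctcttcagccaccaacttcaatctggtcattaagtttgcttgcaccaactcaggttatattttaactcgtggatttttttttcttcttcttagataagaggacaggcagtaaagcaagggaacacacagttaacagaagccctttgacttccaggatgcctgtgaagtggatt
The match began 44 bases before the gene start in Ugt1a1 and 94 bases before it in Ugt1a9.

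Ugt2b5 had the highest level of the 10 genes in every group, followed by Ugt2b36. Over the 12 livers Ugt2b5 averaged 625 TPM ± 82.0 (SD, n = 12; lowest 502, highest 769) and Ugt2b36 379 TPM ± 53.0 (SD, n = 12; lowest 296, highest 465), and neither range overlapped that of the next gene in the order. The remaining 8 genes, from Ugt2b1 at 185 TPM ± 65.1 (SD, n = 12) through Ugt2b34, Ugt2a3, Ugt1a1, Ugt1a9, Ugt1a6b and Ugt2b35 to Ugt1a6a at 43.2 TPM ± 11.4 (SD, n = 12), each overlapped the next in the order. Ugt2b35 was lowest in WT vehicle livers, at 44.1 TPM ± 3.06 (SD, n = 3), and was the sixth in WT APAP livers, at 86.9 TPM ± 21.9 (SD, n = 3). Together the 10 genes summed to 1879 TPM ± 174 in WT vehicle, 1769 ± 309 in WT APAP, 2279 ± 182 in KO-label vehicle and 1804 ± 232 in KO-label APAP livers (SD, n = 3 each). The share of Ugt2b5 in each liver's sum, averaged within a group, was between 29.91% and 37.47%.

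**Figure D1:**
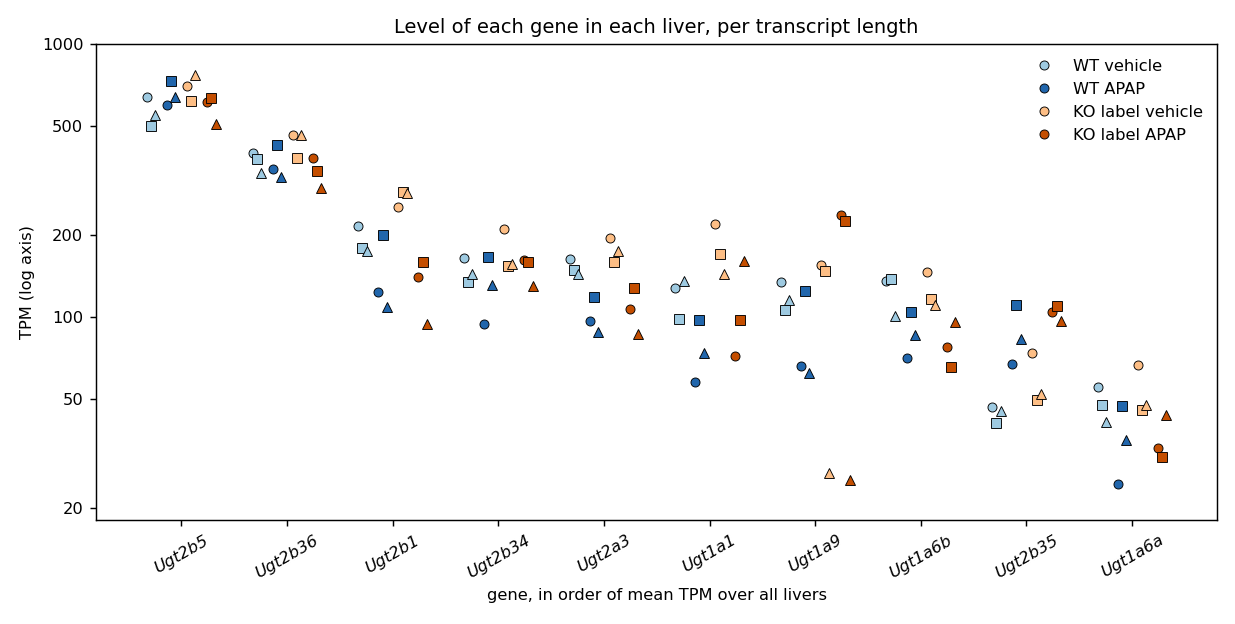
Level of each of the 10 genes in each of the 12 livers, in TPM on a log axis, with genes in order of their mean over all livers; colors give the group and circles, squares and triangles replicates 1, 2 and 3. Ugt2b5 and Ugt2b36 stand above the other 8 genes in every liver, and Ugt1a9 has the widest spread, from 25.2 to 236 TPM.

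The main question was what APAP did to these genes, first over all 12 livers with the genotype label as a covariate. After APAP, 5 of the 10 genes were lower (Ugt1a1, Ugt1a6a, Ugt1a6b, Ugt2a3 and Ugt2b1) and 1 was higher (Ugt2b35) by edgeR's quasi-likelihood test with Benjamini-Hochberg adjustment over all genes. Of all 16509 genes tested, 11.4% were lower and 14.0% higher by the same rule. That is 2307 genes higher and 1880 lower, against 2131 and 1013 with libraries scaled by total count alone and 1944 and 2447 by limma on quantile-normalized TPM, and the 10 genes had the same 6 calls under both. The median log2 fold change was -0.41 over the 10 genes, all of which passed the filter on low counts, and 0.01 over all genes tested. In bulk liver, fewer cells expressing a gene and less RNA of it per cell cannot be told apart. Values below are counts divided by the scaled library size (CPM), compared within a gene, in the order of replicates 1, 2 and 3.

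**Figure D2:**
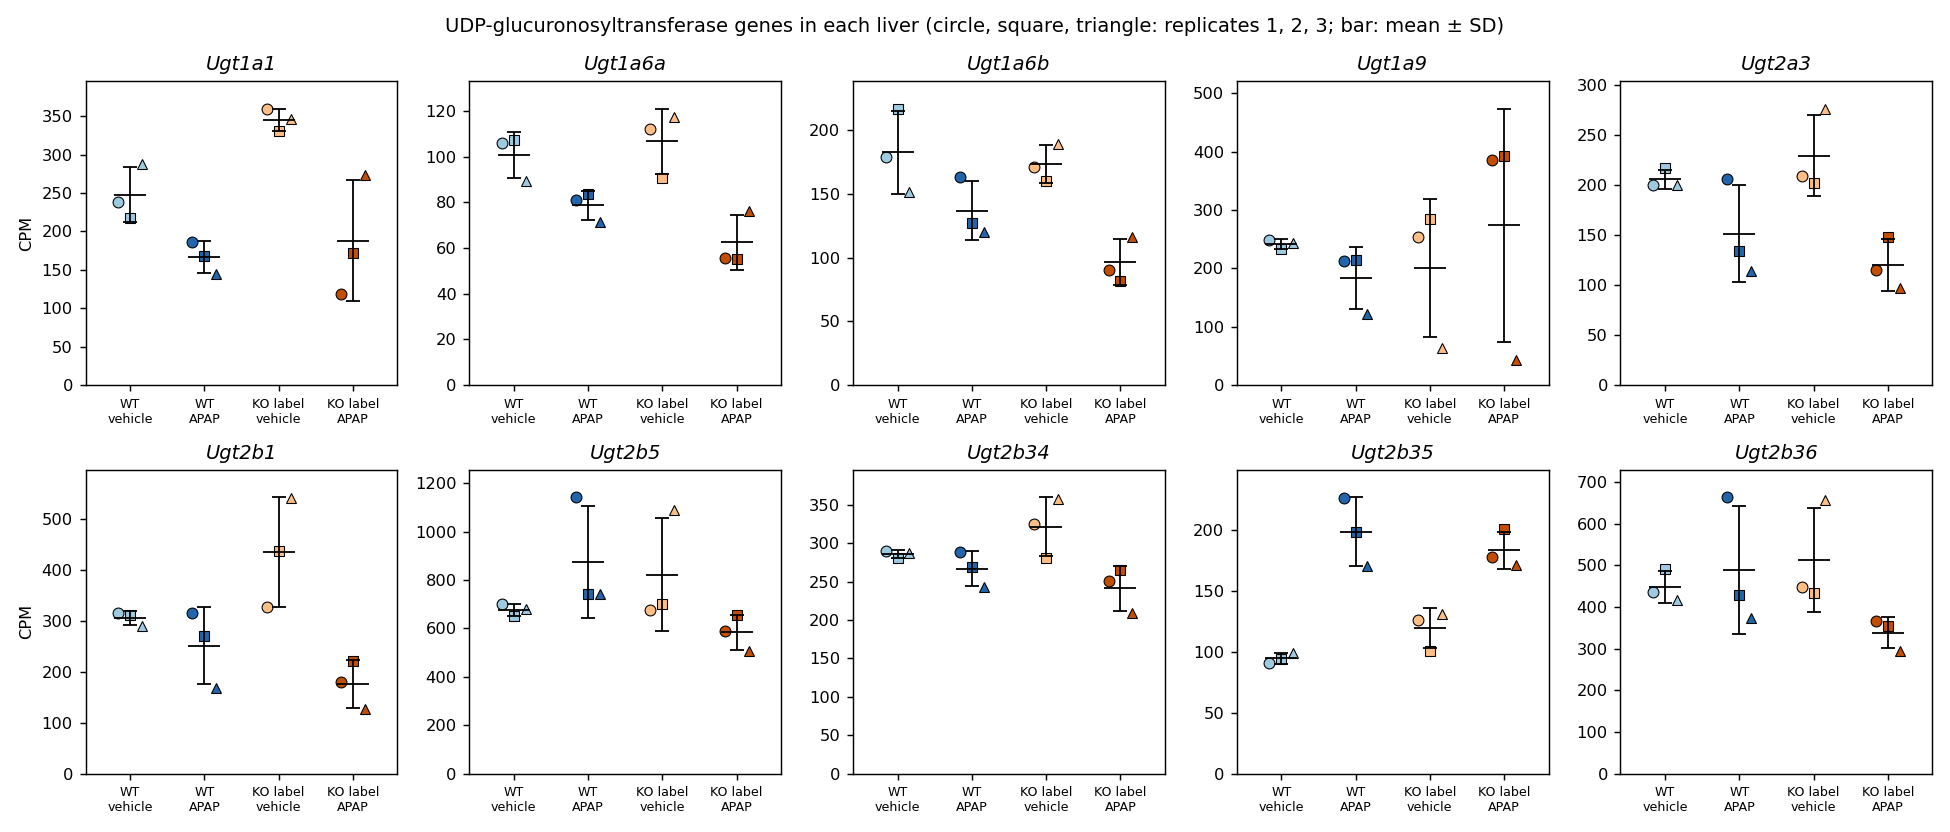
CPM of the 10 genes by group, on axes that start at 0; circles, squares and triangles are replicates 1, 2 and 3, and the black bar is the mean ± SD of 3 livers. Ugt2b35 is higher in all 6 APAP livers than in all 6 vehicle livers, Ugt1a6a is lower in all 6, both of which hold in CPM and not in TPM, and Ugt1a9 falls to 64.3 and 42.9 CPM in KO-label vehicle 3 and KO-label APAP 3.

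Ugt2b35, a family 2B enzyme, was the gene that rose. It stood at 90.5, 93.7 and 99.4 CPM in WT vehicle livers, rose to 227, 199 and 170.0 CPM in WT APAP livers, stood at 126, 100.4 and 131 CPM in KO-label vehicle livers, and at 178, 200.4 and 171 CPM in KO-label APAP livers. Every APAP liver was above every vehicle liver in CPM, whereas in TPM WT APAP 1 (67.1) lay below KO-label vehicle 1 (73.8). The log2 fold change was 0.84 (SE 0.12), or 1.79-fold, with an adjusted p of 0.000431 by edgeR's quasi-likelihood test, and the call held when any 1 of the 12 livers was left out.

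Ugt1a1, the bilirubin-conjugating enzyme, fell. Its values were 239, 218 and 287 CPM in WT vehicle livers, 187, 168 and 145 CPM in the WT livers given APAP, 359.6, 331 and 346 CPM in KO-label vehicle livers, and 118, 172 and 274 CPM in KO-label APAP livers. Within each label all APAP livers were below all vehicle livers in CPM, but KO-label APAP 3 was above 2 of the WT vehicle livers, and in TPM it (161) was also above KO-label vehicle 3 (143). The log2 fold change was -0.73 (SE 0.18), a 1.65-fold lower level, with an adjusted p of 0.00961 by edgeR's quasi-likelihood test.

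Ugt1a6a and Ugt1a6b, which encode near-identical enzymes for small flat phenols, fell together. Ugt1a6a was at 106, 107 and 89.3 CPM in WT vehicle, 81.2, 83.5 and 71.5 CPM in WT APAP, 112, 90.5 and 118 CPM in KO-label vehicle, and 55.5, 55.4 and 76.4 CPM in KO-label APAP livers. In CPM all 6 APAP livers were below all 6 vehicle livers, whereas in TPM WT APAP 2 (47.2) and KO-label APAP 3 (43.8) were above WT vehicle 3 (41.2). The log2 fold change was -0.57 (SE 0.13, edgeR adjusted p = 0.00608). Ugt1a6b was at 179, 217 and 151 CPM in WT vehicle, 163, 127 and 119.7 CPM in WT APAP, 171, 160.0 and 189 CPM in KO-label vehicle, and 90.4, 82.0 and 116 CPM in KO-label APAP livers. In CPM WT APAP 1 lay among the vehicle livers, whereas in TPM it lay below all of them, at 70.8 against 101 or more, and WT APAP 2 (104) overlapped them. The log2 fold change was -0.63 (SE 0.14, edgeR adjusted p = 0.00615), and -0.71 without WT APAP 1 (edgeR adjusted p = 0.00176). Since reads of this pair may be exchanged, their counts were also summed, which gave -0.61 (SE 0.14, edgeR adjusted p = 0.00603).

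Ugt2a3, an enzyme of family 2A that acts on bile acids, was at 199, 216 and 200.1 CPM in WT vehicle, 206, 134 and 114 CPM in WT APAP, 209, 202 and 276 CPM in KO-label vehicle, and 115, 147 and 96.9 CPM in KO-label APAP livers. WT APAP 1 lay among the vehicle livers and the other 5 APAP livers below all of them, whereas in TPM all 6 APAP livers, WT APAP 1 at 96.7 TPM among them, were below all vehicle livers, the lowest of which was at 144. It fell by 0.69 on the log2 scale (SE 0.17, edgeR adjusted p = 0.0108), and by 0.83 with WT APAP 1 left out (edgeR adjusted p = 0.000767).

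Ugt2b1, a family 2B enzyme of drug and steroid conjugation, had the largest decrease of the 10. It stood at 317, 313 and 291 CPM in WT vehicle, 315, 271 and 168 CPM in WT APAP, 328, 438 and 543 CPM in KO-label vehicle, and 181, 221 and 127 CPM in KO-label APAP livers. The KO-label groups lay well apart, whereas WT APAP 1 was within the WT vehicle range in CPM and below it in TPM, at 123 against 174 to 215. In TPM WT APAP 2, at 199, lay within the WT vehicle range. The log2 fold change over all livers was -0.80 (SE 0.23, edgeR adjusted p = 0.0245). This call was lost in 4 of 12 fits that each left out 1 liver, at an edgeR adjusted p of 0.0682 without KO-label APAP 1, 0.0532 without WT APAP 3, 0.0523 without KO-label vehicle 2 and 0.0656 without KO-label APAP 3. With the third replicate of both KO-label groups left out together, which was chosen after seeing the data, Ugt2a3 (edgeR adjusted p = 0.0522) and Ugt2b1 (0.0896) did not pass.

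The other 4 genes did not pass. Ugt2b34 was at 289.9, 280.2 and 287 CPM in WT vehicle, 288, 269.5 and 243 CPM in WT APAP, 325, 281 and 358 CPM in KO-label vehicle, and 251, 264 and 209 CPM in KO-label APAP livers, a log2 fold change of -0.26 (SE 0.11, edgeR adjusted p = 0.111). Ugt2b5 and Ugt2b36, the genes with the highest levels, gave -0.06 (SE 0.20) and -0.24 (SE 0.19), with edgeR adjusted p-values of 0.847 and 0.397. Ugt1a9 gave 0.02 (SE 0.47, edgeR adjusted p = 0.978), with the widest standard error of the 10. Leaving out single livers moved the value between -0.21 and 0.09 for Ugt2b5, -0.39 and -0.10 for Ugt2b36, and -0.21 and 0.23 for Ugt1a9.

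Ugt1a9, which conjugates bulky phenols, was at 249, 233 and 244 CPM in WT vehicle livers and at 213, 215 and 122 CPM in the WT livers given APAP. In KO-label vehicle livers it was at 253, 284 and 64.3 CPM, and in KO-label APAP livers at 386, 392 and 42.9 CPM. The third replicate of each KO-label group was thus several times below the other livers of its group, and KO-label APAP 1 and 2 were the highest of all 12. The other 3 Ugt1a genes in KO-label vehicle 3 lay at 346 (Ugt1a1), 118 (Ugt1a6a) and 189 (Ugt1a6b) CPM, within or above the range of the other vehicle livers.

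Summed over the 8 Ugt1a rows of the table, the counts of the cluster were steadier than those of Ugt1a9. The sum was 783 CPM ± 4.41 in WT vehicle, 579 ± 96.7 in WT APAP, 841 ± 101 in KO-label vehicle and 636 ± 94.2 in KO-label APAP livers (SD, n = 3 each). Ugt1a9 held between 25.83% and 35.33% of the sum in the 6 WT livers and in KO-label vehicle 1 and 2. It held 58.75% and 54.61% in KO-label APAP 1 and 2, but 8.856% in KO-label vehicle 3 and 8.034% in KO-label APAP 3, where Ugt1a1 held 47.66% and 51.39%. The sum fell by 0.42 on the log2 scale after APAP (SE 0.12, edgeR adjusted p = 0.0218), the direction in which 3 of the 4 single genes moved. Whether the division of reads of the shared exons has a part in the unlike shares was not tested.

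**Figure D3:**
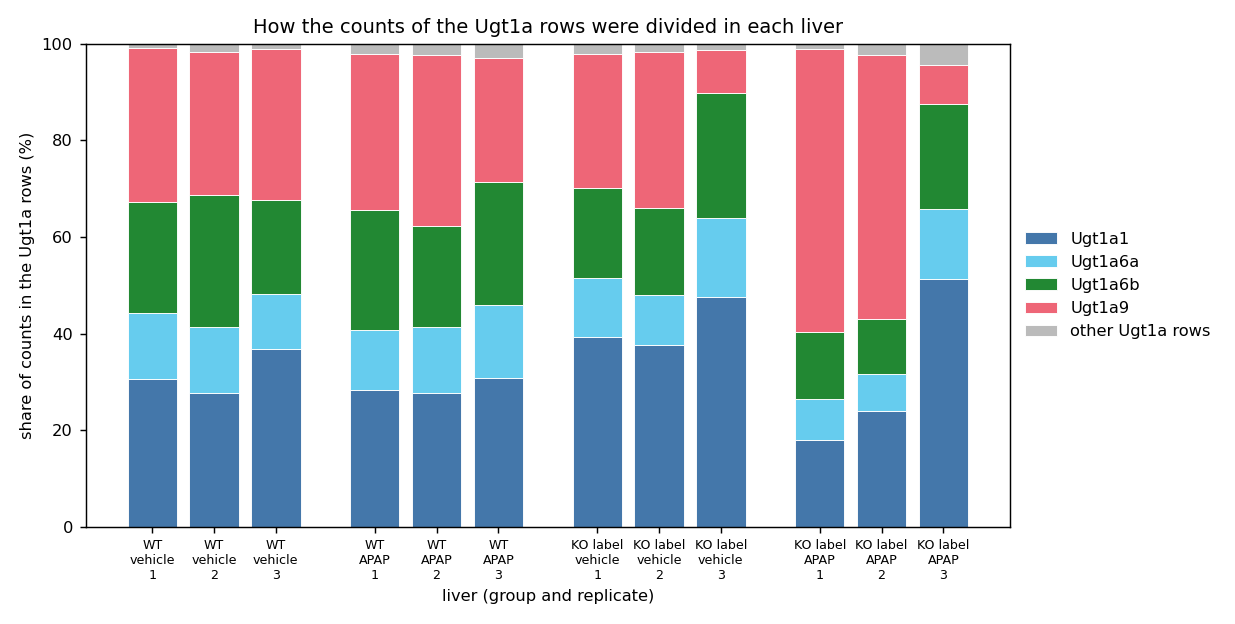
Share of the counts of the 8 Ugt1a rows assigned to each gene, in percent, for each of the 12 livers, labelled by group and replicate; the bars of a liver add to the whole. Ugt1a9 takes 25.83% to 35.33% in 8 livers, over 50% in KO-label APAP 1 and 2 and under 10% in the third replicate of both KO-label groups.

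The treatment was then compared within each label, on 6 livers each. In WT livers 1 of the 10 genes, Ugt2b35, was higher (log2 fold change 1.08, SE 0.18, 2.11-fold, edgeR adjusted p = 0.0319) and none was lower, where 1.62% of 15693 genes tested were higher and 0.427% lower (255 and 67 genes, against 158 and 15 with total-count scaling). The Ugt2b35 call in WT was lost when any 1 liver other than WT APAP 1 was left out, at edgeR adjusted p-values up to 0.165, although the log2 fold change stayed between 0.96 and 1.18. Ugt1a1 (-0.57, SE 0.20), Ugt1a6a (-0.35, SE 0.17) and Ugt1a9 (-0.39, SE 0.25) did not pass in WT, at edgeR adjusted p-values of 0.187, 0.321 and 0.451. Their WT groups did not overlap in CPM, but in TPM those of Ugt1a6a and Ugt1a9 did, and the value for Ugt1a9 was -0.17 without WT APAP 3.

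Under the KO label, 4 of the 10 genes were lower and 1 was higher, where 9.60% of 15665 genes tested were lower and 13.0% higher (1504 and 2034 genes, against 831 and 2252 with total-count scaling). Ugt2b1 fell by 1.30 on the log2 scale (SE 0.25, 2.46-fold, edgeR adjusted p = 0.00893). Ugt2a3 fell by 0.93 (SE 0.20, edgeR adjusted p = 0.0128), Ugt1a6b by 0.84 (SE 0.16, edgeR adjusted p = 0.00865) and Ugt1a6a by 0.76 (SE 0.17, edgeR adjusted p = 0.0161). Ugt2b35 rose by 0.63 (SE 0.15, 1.54-fold, edgeR adjusted p = 0.019). Ugt1a1 lay just past the threshold (-0.87, SE 0.27, edgeR adjusted p = 0.0513). Ugt1a6a and Ugt1a6b summed fell by 0.81 under the KO label (SE 0.17, edgeR adjusted p = 0.0114). The sum of all 8 Ugt1a rows did not pass under the KO label (-0.39, SE 0.17, edgeR adjusted p = 0.128). Nor did it pass in WT (-0.43, SE 0.21, edgeR adjusted p = 0.338). The Ugt1a6a call was lost in 3 of 6 fits that each left out 1 liver, without KO-label vehicle 1 (edgeR adjusted p = 0.0503), KO-label vehicle 3 (0.0557) or KO-label APAP 1 (0.0567), and the Ugt2b35 call without KO-label vehicle 2 (0.0695).

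**Figure D4:**
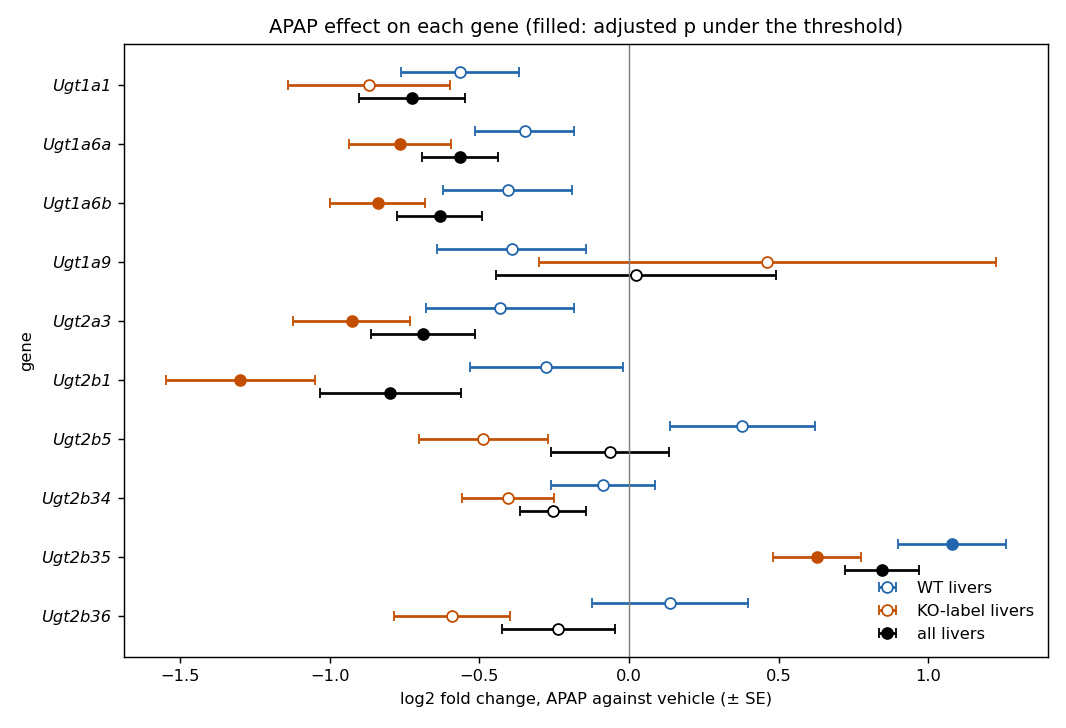
Log2 fold change of APAP against vehicle for each of the 10 genes, with its SE as the error bar, in the 6 WT livers, the 6 KO-label livers and all 12 livers; filled points passed edgeR's quasi-likelihood test after adjustment. Ugt2b35 is the gene to the right of 0 and filled in each of the comparisons, and Ugt2b1 has its most negative point, -1.30, under the KO label.

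Whether the effect of APAP differed between the labels was tested as an interaction, and no gene of the 10 passed, nor did any of the 16509 tested (0.00%), of which 848 had an unadjusted p under 0.05 and 9 passed in DESeq2. At an unadjusted p under 0.05 by edgeR's quasi-likelihood test, 3 of the 10 genes had a more negative effect under the KO label. They were Ugt2b1 (-1.02, SE 0.38), Ugt2b5 (-0.86, SE 0.32) and Ugt2b36 (-0.73, SE 0.33), each with an edgeR adjusted p of 0.872. Ugt2b5 was at 701, 652 and 681 CPM in WT vehicle, 1142, 741 and 741 CPM in WT APAP, 676, 701 and 1091 CPM in KO-label vehicle, and 589, 654 and 508 CPM in KO-label APAP livers. Its WT APAP livers were all above the WT vehicle livers and its KO-label APAP livers all below the KO-label vehicle livers in CPM. In TPM both pairs of groups overlapped, with WT APAP 1 at 599.9 against 502 to 639.8 in WT vehicle and KO-label APAP 2 at 633 against 616 to 769 in KO-label vehicle livers. The 2 highest CPM values were those of WT APAP 1 and KO-label vehicle 3, and the difference was -0.60 with either of them left out. Ugt2b36 was at 436, 490.3 and 417 CPM in WT vehicle, 663, 430.0 and 374 CPM in WT APAP, 447, 433 and 658 CPM in KO-label vehicle, and 366, 353 and 296 CPM in KO-label APAP livers, and the same 2 livers were its highest in CPM. In TPM WT APAP 1 was at 349.6, below WT APAP 2 at 425, and without WT APAP 1 the difference of -0.73 for Ugt2b36 was -0.42.

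Comparing the labels directly, none of the 10 genes differed after APAP, where 0.0309% of 16174 genes did, or with vehicle, where 0.0262% of 15262 genes did. After APAP, 8 of the 10 had lower means under the KO label, of which Ugt2b34 and Ugt2b35 turned to 0.09 and 0.13 with total-count scaling. In TPM, 4 of the 10 had lower means under the KO label, with Ugt1a6a, Ugt2a3, Ugt2b34 and Ugt2b35 now higher. An unadjusted p under 0.05 was found for 2 of the 10, against 536 of all genes tested: Ugt1a6b (-0.52, SE 0.21) and Ugt2b5 (-0.60, SE 0.24), with an edgeR adjusted p of 0.958 for both. Without WT APAP 1 the values were -0.36 for Ugt1a6b and -0.35 for Ugt2b5. In TPM both genes overlapped between the labels after APAP. Ugt1a6b was at 70.8 to 104 TPM in WT and 65.5 to 96.1 under the KO label, and Ugt2b5 at 600 to 731 and 508 to 633. With vehicle, 8 of the 10 had higher means under the KO label, and 3 had an unadjusted p under 0.05, against 1154 of all genes tested: Ugt2b1 (0.50, SE 0.20), Ugt1a1 (0.48, SE 0.15) and Ugt2b35 (0.33, SE 0.14), with edgeR adjusted p-values of 0.634, 0.588 and 0.654. The value for Ugt2b1 was 0.32 without KO-label vehicle 3. In Ugt1a1 the vehicle groups did not overlap, with 331 to 359.6 CPM under the KO label and 218 to 287 CPM in WT. The same held for Ugt2b1, at 328 to 543 CPM under the KO label and 291 to 317 CPM in WT. In Ugt2b35 they lay close, at 100.4 to 131 CPM under the KO label and 90.5 to 99.4 CPM in WT. These comparisons share their livers with those of APAP against vehicle.

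Other Ugt genes were listed as well, of which Ugt3a1, Ugt3a2 and Ugt8a lie outside the Ugt1a and Ugt2 families of glucuronosyltransferases. Of 12 listed, 11 were in the table and 9 passed the filter on low counts, and Ugt2a1 and Ugt2a2 were at 0 in every liver. Named after their values were seen, Ugt3a2 had group means of 123 to 177 TPM and Ugt2b38 of 52.7 to 77.6 TPM, both above the 43.2 TPM of the member Ugt1a6a. Ugt2b37 was higher after APAP over all livers (log2 fold change 1.19, SE 0.29, edgeR adjusted p = 0.0101) and the other 8 did not pass; the median of the 9 was 0.32. Ugt2b37 was at 1.82 to 2.60 CPM in WT vehicle, 4.55 to 9.37 in WT APAP, 2.20 to 5.33 in KO-label vehicle and 3.96 to 8.18 in KO-label APAP livers, so the KO-label groups overlapped in CPM, whereas in TPM they did not, at up to 3.78 with vehicle and from 3.85 after APAP.

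The cofactor of all 10 enzymes, UDP-glucuronic acid, is made from glucose by way of UDP-glucose. Of 8 genes of its supply and turnover, 2 were higher and 2 lower after APAP over all livers, and the median log2 fold change was 0.31. Ugdh, which oxidizes UDP-glucose to UDP-glucuronic acid, was at 70.8 to 108 CPM in WT vehicle, 219 to 301 in WT APAP, 95.5 to 113 in KO-label vehicle and 233 to 326 in KO-label APAP livers. All 6 APAP livers were above all 6 vehicle livers, by 2.81-fold (log2 1.49, SE 0.14, edgeR adjusted p = 1.33e-05). The transcript for the last step thus rose, while of the 10 transferase genes 5 were lower and 1 was higher. The phosphoglucomutase gene Pgm1 also rose (1.49, SE 0.23, edgeR adjusted p = 0.000556). Its group means went from 3.04 to 9.54 CPM in WT and from 3.22 to 8.14 CPM under the KO label. Pgm2, the phosphoglucomutase gene with the far higher level, fell (-0.36, SE 0.10, edgeR adjusted p = 0.0193). Group means of Pgm2 went from 224 to 164 CPM in WT and from 193 to 159 CPM under the KO label. Gusb, the β-glucuronidase that splits glucuronides, also fell (-0.36, SE 0.09, edgeR adjusted p = 0.0101).

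Of 8 carriers of glucuronides and other organic anions, 5 were lower and 1 was higher after APAP, with a median log2 fold change of -0.46. The uptake carriers Slco1a4 (-1.08, SE 0.21), Slco1b2 (-0.97, SE 0.17), Slco1a1 (-0.74, SE 0.17) and Slco2b1 (-0.54, SE 0.12) fell, as did the basolateral export pump Abcc3 (-0.38, SE 0.13), all with an edgeR adjusted p of 0.0473 or less. The 1 that rose, the export pump Abcc4 (0.79, SE 0.27, edgeR adjusted p = 0.0479), was named after its values were seen. It was low in every group, with means of 1.86 to 3.76 CPM. Its WT groups overlapped, at 1.32 to 2.67 CPM with vehicle and 2.13 to 4.41 CPM after APAP, and its KO-label groups did not.

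Of 14 sensors and factors known to act on Ugt genes, 3 were lower and 1 was higher, with a median of -0.29. The receptors Nr1i3, known as CAR (-1.18, SE 0.15), Ppara (-1.20, SE 0.17) and Ahr (-0.76, SE 0.19) fell, and Nfe2l2, which encodes the redox-sensing factor NRF2, rose (0.55, SE 0.09), with edgeR adjusted p-values of 0.000147, 0.000396, 0.0108 and 0.000991 in that order. Of 17 target genes of these sensors, 9 rose and 1 fell, with a median of 1.18. The NRF2 targets Srxn1 (4.35, SE 0.20), Gclc (3.09, SE 0.16), Hmox1 (5.38, SE 0.43) and Txnrd1 (1.89, SE 0.20) and the PPAR-alpha target Pdk4 (2.25, SE 0.28) rose, each with an edgeR adjusted p of 0.000143 or less. Other PPAR-alpha targets, named after their values were seen, did not all follow Pdk4. In WT, group means went from 2369 to 2193 CPM for Cyp4a10, 2993 to 2450 for Cyp4a14 and 77.0 to 92.8 for Acot1. Under the KO label they went from 2413 to 2465, 3195 to 3349 and 67.8 to 125 CPM. The 1 of the 17 that fell, Cyp1a2 (-0.90), is a target of Ahr, is also 1 of the pericentral markers, and was named after its values were seen. The other Ahr targets listed did not share its fall. Group means of Tiparp went from 7.24 to 38.2 CPM in WT and from 4.14 to 19.7 CPM under the KO label. Those of Cyp1a1 and Ahrr were at 1.28 CPM or less in every group.

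**Figure D5:**
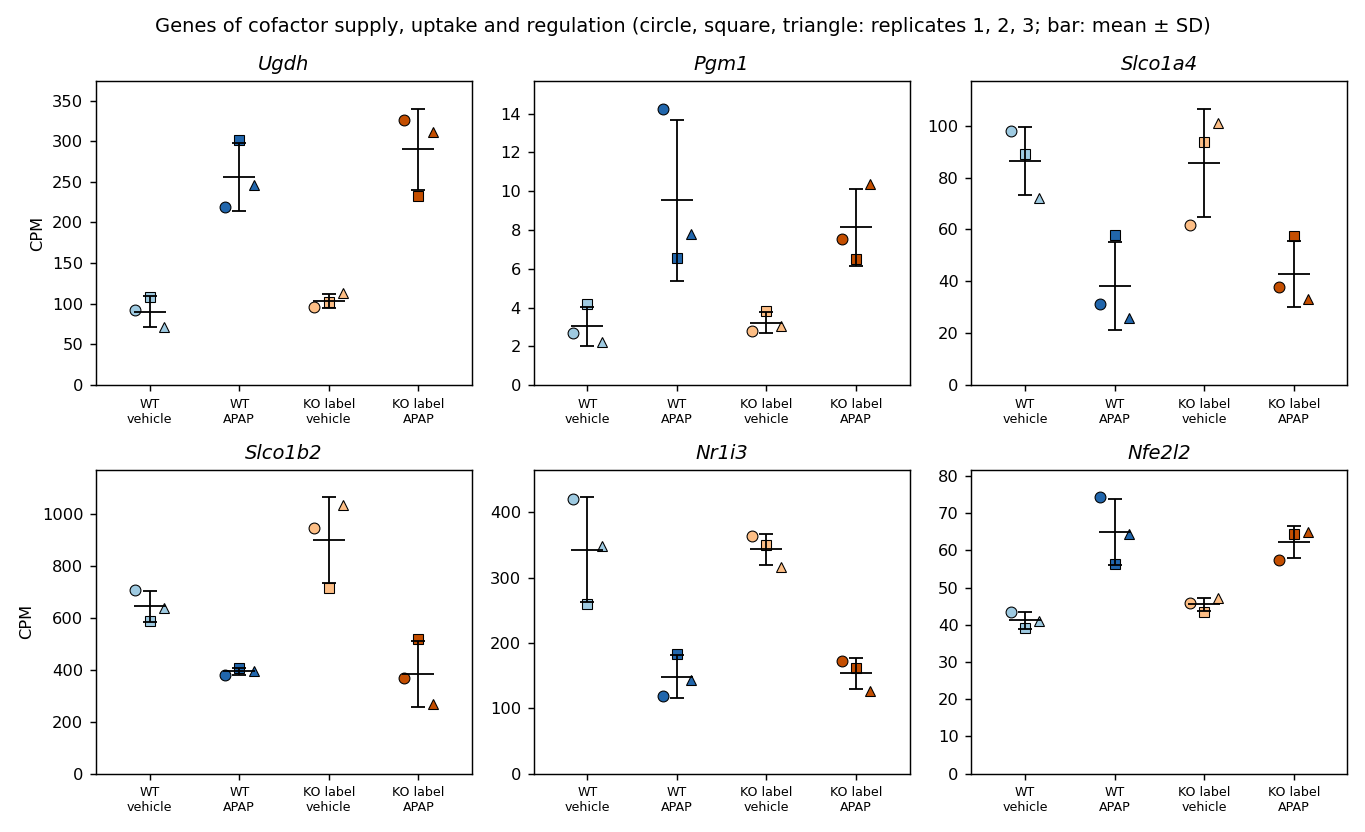
CPM of the supply genes Ugdh and Pgm1, the uptake carriers Slco1a4 and Slco1b2, the receptor Nr1i3 and the factor Nfe2l2 by group, on axes that start at 0; circles, squares and triangles are replicates 1, 2 and 3, and the black bar is the mean ± SD of 3 livers. Ugdh, Pgm1 and Nfe2l2 are higher, and Slco1a4, Slco1b2 and Nr1i3 lower, in all 6 APAP livers than in all 6 vehicle livers in CPM. In TPM this does not hold for Nfe2l2, as low as 33.1 in WT APAP and as high as 38.2 in KO-label vehicle livers. Nor does it hold in TPM for Slco1b2, as high as 288 in KO-label APAP and as low as 261 in WT vehicle livers. Pgm2, the phosphoglucomutase gene with the far higher level, fell and is not shown.

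Genes whose pattern over the 12 livers was most like that of Ugt2b35 and Ugt2b1 were sought among the 3350 genes outside the family whose mean log2 CPM reached 5, by the root mean square difference of log2 CPM after each gene's mean was taken off. For Ugt2b35, whose own SD over the livers was 0.48, they were Evi5 (0.16), Eif5 (0.18) and Atp6v1h (0.19). For Ugt2b1, with an SD of 0.59, they were Ttpa (0.22), Serpind1 (0.22) and 0610005C13Rik (0.22).

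Markers of liver zones moved with the treatment. The 8 pericentral markers, genes of the hepatocytes around the central vein where APAP is mainly oxidized, summed to 7192 to 9929 TPM in vehicle livers and 2169 to 6142 TPM in APAP livers, with none at 0, and 7 of the 8 were lower over all livers. Of the 8 periportal markers 3 were lower, and the sum was 7516 to 11930 TPM in vehicle livers and 5780 to 9127 TPM in APAP livers. The part of these shifts in the lower counts of Ugt1a1, Ugt1a6a, Ugt1a6b, Ugt2a3 and Ugt2b1 was not tested. The 6 hepatocyte markers did not pass in either direction. Neutrophil markers summed to 0.4349 to 38.87 TPM in WT vehicle, 24.17 to 233.8 in WT APAP, 0.5693 to 2.345 in KO-label vehicle and 1.058 to 17.6 TPM in KO-label APAP livers, so that the WT groups overlapped, and 1 of 5 tested was higher over all livers. Erythroid markers summed to 28810 TPM in WT APAP 1 and to 1560 TPM or less elsewhere. The sums ran from 52.16 to 167.5 TPM for Kupffer cells, 82.34 to 147.1 for sinusoidal endothelium, 70.6 to 143.6 for stellate cells and 12.28 to 34.68 for cholangiocytes, with 0, 2, 0 and 2 of their markers higher and 0, 0, 1 and 0 lower.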

How the data were processed

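RNA was extracted from 12 livers and poly-A libraries were made with the TruSeq Stranded mRNA kit and read as 100 bp pairs. Per the submitters' processing notes, the tools were FastQC 0.11.7, Trimmomatic 0.38, HISAT2 2.1.0, Bowtie2 2.3.4.1 and StringTie 2.1.3b on mm10 (GRCm38); whether counting used the strand is not given in the sources used here. The authors deposited 1 table of 45777 genes with, for each liver, read counts, FPKM and TPM. The deposited counts are reads per gene as assigned by the submitters' tools. How reads that fit several genes were divided is not given in the sources used here. The deposited TPM are scaled to transcript length and library and were used for levels. The deposited FPKM were listed with the other values and otherwise used only in place of TPM to order the members by level, as an alternative.

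Counts were scaled by TMM, filtered with filterByExpr and tested with edgeR 4.0.16 (quasi-likelihood, R 4.3.3), with Benjamini-Hochberg adjustment across every gene tested and an adjusted p threshold of 0.05. CPM are TMM-scaled. The study's own analysis used log and quantile-normalized TPM, which was run as an alternative with limma 3.58.1, as was DESeq2 1.42.0. Same-numbered livers of the groups did not deviate together, so the replicate number was not used as a block. Scripts were tested on simulated data. Coding identities came from Biopython global alignments of GENCODE M21 transcripts.

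All 10 members are named. Of each list of other genes, those passing over all livers were named, at most 5 by smallest p, with Gna12, and the 3 genes nearest to the members with the largest increase and decrease. Of the cell type lists (hepatocytes, pericentral and periportal hepatocytes, erythroid cells, neutrophils, Kupffer cells, sinusoidal endothelium, stellate cells, cholangiocytes) only sums, counts and genes at 0 were used. One gene of the cofactor supply list is not reported here and was left out of that list's counts and median. The members and lists were chosen with earlier results of these data known. Groups of 3 cannot give an exact permutation p below 0.1, so single genes were tested only in the fits across all genes.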

Additional observations from a re-analysis of the deposited data

Results flagged for a closer look

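Ugt2b5 was marked because its 3 WT APAP livers were all above the WT vehicle livers and its 3 KO-label APAP livers all below the KO-label vehicle livers in CPM, which did not hold in TPM. The effect of APAP under the KO label minus that in WT was -0.86 on the log2 scale, with an unadjusted p of 0.0206 and an adjusted p of 0.872 by edgeR's quasi-likelihood test. Groups of 3 livers were not examined for single outlying livers by this procedure.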

How the results depend on the processing

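The limits first: 3 livers a group, counts that near-identical genes share, and 1 library with much hemoglobin RNA. Over all livers, the 1 gene called higher, Ugt2b35, was called under every alternative. Either 4 or 5 genes were lower, apart from settings added after seeing the data that left out a pair of livers. With WT APAP 1 and WT vehicle 2 both left out, 6 of the 10 genes were lower, Ugt2b34 being added (edgeR adjusted p = 0.0451). With KO-label vehicle 3 and KO-label APAP 3 both left out, 3 of the 10 genes were lower. There Ugt2a3 and Ugt2b1 had edgeR adjusted p-values of 0.0522 and 0.0896. In WT, 0 genes were higher, in place of 1, in an unmoderated test on quantile-normalized TPM, with the replicate block and with libraries scaled by total count alone (added after seeing the data), and 0 to 1 when 1 liver was left out. Under the KO label, 7 genes were lower in place of 4 by DESeq2 and 0 by the unmoderated test, which also called 0 higher in place of 1; leaving out 1 liver gave 0 to 1 higher. Counting all Ugt1a rows as 1 gene turned the direction of Ugt1a9 over all livers, from 0.02 to -0.42 (edgeR adjusted p = 0.0218), because the sum replaces the gene. Under the KO label that sum did not pass (-0.39, edgeR adjusted p = 0.128), where Ugt1a6a and Ugt1a6b had each been called lower. The cause of the other differences was not tested. The numbers of the replicates did not pair the livers, since the correlations of same-numbered livers ran from -0.264 to 0.0491, and the replicate block changed no other count of members called by over 1.5 times. Over all genes, the WT comparison gave 255 higher and 67 lower, against 877 and 536 by DESeq2, 968 and 555 with all 12 livers in 1 fit, 61 and 1 with the replicate block, 158 and 15 with total-count scaling, and 0 and 0 by the unmoderated test. Under total-count scaling the median log2 fold change of all genes was 0.22 in place of -0.02 between the labels after APAP and 0.10 in place of -0.02 for APAP under the KO label. With vehicle, DESeq2 called 75 genes higher and 62 lower between the labels, and after APAP 8 and 21.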
